A study of Mus musculus with 4 samples.

Results

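The genes described here are the chemokines and their receptors of the mouse, found by symbol (Ccl, Cxcl, Cx3cl and Xcl for ligands, Ccr, Cxcr, Cx3cr and Xcr for receptors) in both deposited tables of the series. There were 56 of them among 23235 listed genes, 37 ligands and 19 receptors, and rows that join several symbols were left out. RNA was sequenced from luminal epithelium, the layer lining the uterine cavity, and from stroma, the tissue beneath it, each cut out by laser capture microdissection on day 4 of pseudopregnancy. Mating with a vasectomized male makes a female pseudopregnant, with no embryo in the uterus. The 4 libraries were 1 of each tissue from a control uterus, labelled Msx1f/f/Msx2f/f, in which both homeobox genes carry floxed alleles, and 1 of each from a uterus labelled Msx1d/d/Msx2d/d, in which they are deleted. The deletion was described as uterine-specific, with 1 mouse of each genotype. With 1 mouse of each, genotype and animal cannot be told apart. The Cre line, the ages and the strain background are not stated in the labels.

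Chemokines are small secreted proteins that draw leukocytes along a gradient, and their receptors are G protein-coupled receptors carried mainly by leukocytes. The CC, CXC, CX3C and XC families are named for the number and spacing of their first cysteines. Some members are made constantly and set where cells reside, while others are induced by inflammation through NF-kappaB or by interferon. In the uterus they are known for placing macrophages, dendritic cells and natural killer cells in the stroma before implantation.

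No value had a replicate, so no test between genotypes was possible and higher and lower describe these libraries only. Levels are RPKM, read counts scaled to transcript length and to the number of mapped reads. The estimated depth ranged from 6.32 M reads in control epithelium to 90.8 M in epithelium labelled knockout, with 42.7 M and 61.3 M in the stromal libraries, so the epithelial pair differed by 14.4 times. Of the 56 genes, 30 were listed at 0 in control epithelium, 25 in epithelium labelled knockout and 15 in each stromal library. Of all 23235 genes, 9513 were at 0 in control epithelium and 7133 in epithelium labelled knockout. In control stroma 6499 of them were at 0, and in stroma labelled knockout 6274. Msx1 was at 23.2 RPKM in control epithelium and 13.6 in the library labelled knockout, and Msx2 at 1.31 and 2.06, which goes against the label. In stroma Msx1 was at 0.0467 and 0.0207 RPKM and Msx2 at 0.135 and 0.0564. The libraries are therefore called labelled knockout, and each direction rests on that label. The captures carried their own markers: 6 epithelial markers summed to 204 and 210 RPKM in the epithelial libraries and to 0.864 and 0.347 in stroma, while 9 stromal markers summed to 12.7 and 5.12 RPKM in epithelium and to 368 and 532 in stroma, control first. Levels set across tissues compare 2 tables normalized separately.

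Chemokine RNA was sparse, and each tissue had its own small set. Averaged over the pair of libraries, 2 of the 56 genes reached 1 RPKM in epithelium, against 7736 of all 23235 genes. In stroma 9 of the 56 did, against 7723 of all genes. Taking any single library, 14 of the 56 genes reached 1 RPKM. Among them were the ligands Ccl8, Cxcl17, Cxcl14, Cxcl12, Xcl1, Cx3cl1, Cxcl16 and Ccl27a, and the receptors Ccr2, Cxcr7, Cxcr6, Cxcr2 and Cx3cr1. In control stroma 13 genes reached that level, in stroma labelled knockout 9, and in each epithelial library 2. Ccl27a, at most 1.01 RPKM, lay just inside this bound and Ccl6, at most 0.971, just outside. The 35 genes above 0 but under 1 RPKM went no higher than 0.677 RPKM in control epithelium, 0.828 in epithelium labelled knockout, 0.971 in control stroma and 0.777 in stroma labelled knockout. Listed at 0 in all 4 libraries were Ccl1, Ccl17, Ccl24, Ccl26, Ccl28, Ccr8 and Cxcr1. At the depth of control epithelium 3 reads of the short Ccl1 transcript would already make 1.51 RPKM, against 0.105 in its deeper partner, so a 0 there does not show absence.

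**Figure D1:**
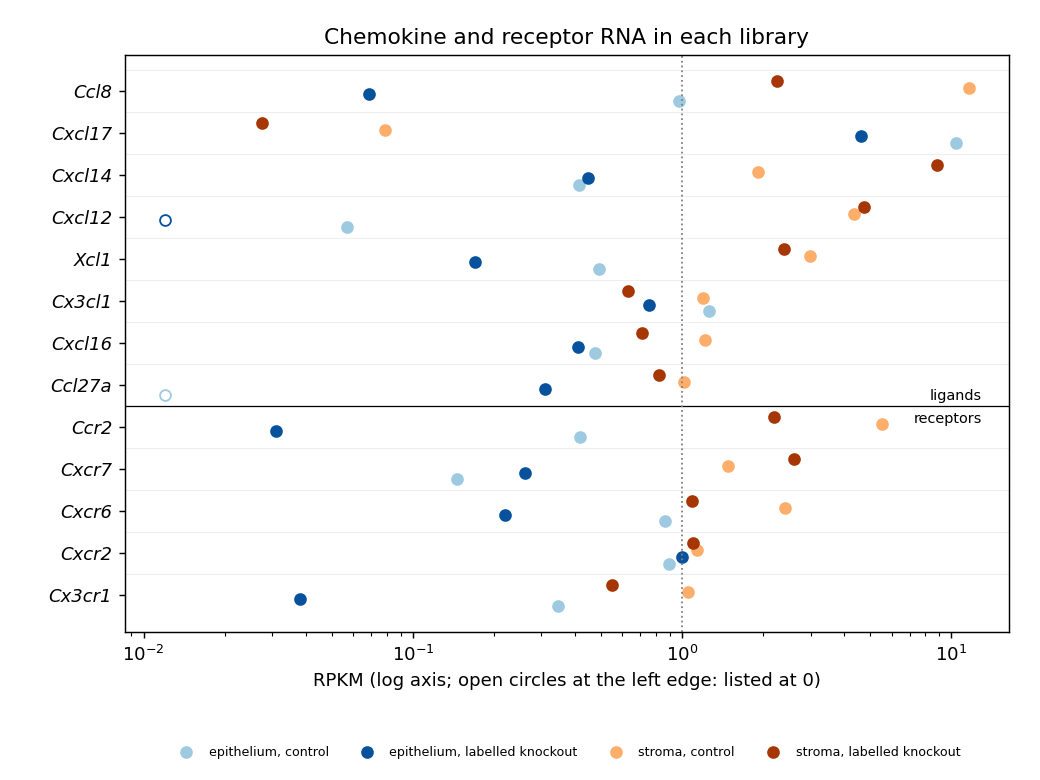
RPKM on a log axis of 13 chemokine and receptor genes that reached 1 RPKM, 1 point per library, with values listed at 0 as open circles at the left edge. Cxcl17 lies to the right in both epithelial libraries, the other ligands apart from Cx3cl1 lie further right in stroma than in epithelium, and the 4 points of Cxcr2 fall between 0.892 and 1.14.

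Cxcl17, a chemokine of mucosal epithelia, was the leading epithelial ligand. It was at 10.4 RPKM in control epithelium and 4.61 RPKM in epithelium labelled knockout, against 0.0788 and 0.0276 RPKM in the matching stromal libraries. It made up 64.0% of the summed ligand RPKM of control epithelium and 51.0% of that in the library labelled knockout, and lay at percentiles 96.2 and 88.8 of all genes there. Both epithelial libraries were thus high and both stromal libraries, at an estimated 1.88 and 0.947 reads, close to nothing. The epithelial level was 2.25-fold lower with the knockout label (95% counting limits 1.56 and 3.22), from an estimated 36.6 and 234 reads. Its deposited locus (chromosome 7, 26164546 to 26351436, mm9) is far longer than the gene and may hold neighbours.

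The remaining epithelial ligands were low. Cx3cl1, which encodes fractalkine, a chemokine tethered to the cell membrane, was at 1.26 RPKM in control epithelium and 0.753 in epithelium labelled knockout, and at 1.20 and 0.627 RPKM in stroma. The labelled knockout library was the lower in both tissues, 1.67-fold in epithelium (counting limits 1.07 and 2.56) and 1.91-fold in stroma (limits 1.49 and 2.43), and the 2 tissues were close to each other. Cxcl5, a neutrophil-attracting ligand, was at 0.566 and 0.828 RPKM in epithelium and 0.145 and 0.179 in stroma. Cxcl15, known in the uterus from gland epithelium, was at 0.182 and 0.261 RPKM in epithelium and 0.0835 and 0.0417 in stroma. Foxa2, the gland transcription factor, did not exceed 0.0922 RPKM. The 6 gland markers that include it summed to 1.32 and 5.01 RPKM in epithelium and to 0.477 and 0.120 in stroma. In epithelium labelled knockout 1 of them, Aldh1a1, was past 2-fold higher and 2 were lower. The epithelial difference between genotypes could not be resolved for Cxcl5 or Cxcl15, since the control value rested on an estimated 4.92 reads of Cxcl5 and 2.21 of Cxcl15. Cxcl1, Cxcl2 and Cxcl3, neutrophil-attracting ligands induced by NF-kappaB, did not exceed 0.193 RPKM in any library, and Ccl20, which attracts dendritic and T cells to epithelia, did not exceed 0.266.

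In epithelium 2 of the 56 genes, Cxcl17 and Cx3cl1, averaged 1 RPKM or more across both libraries. Of these, Cxcl17 was at least 2-fold lower after 1 RPKM was added to each value (log2 difference -1.02), while no member was 2-fold higher. Among all 7736 genes that passed the same minimum 1.99% were lower and 5.03% higher by this rule, 7.02% in all. Higher genes made up 71.6% of all genes past it as deposited, and 62.2%, 57.2% and 49.0% under 3 other scalings. Over all 56 genes, with no minimum, the median log2 difference was 0.00, as over all listed genes, with 15 above 0, 18 below and 23 equal.

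Stroma held a different set of ligands, led by Ccl8 in the control and Cxcl14 in the library labelled knockout. Ccl8 is a CC chemokine of the monocyte chemoattractant group made by macrophages. It was at 11.6 RPKM in control stroma and 2.24 RPKM in stroma labelled knockout, and at 0.971 and 0.0687 RPKM in epithelium. This was 5.17-fold lower (counting limits 3.64 and 7.38), from percentile 97.6 of all genes to percentile 83.8. The epithelial values rested on an estimated 1.91 and 1.94 reads, with a ratio of 0.0707 (counting limits 0.00504 and 0.960). Cxcl14, a CXC chemokine made by epithelial and stromal cells, went the other way in stroma. It was at 1.92 RPKM in control stroma and 8.84 in stroma labelled knockout, 4.61-fold higher (limits 3.84 and 5.58). In epithelium it was nearly level, at 0.414 and 0.447 RPKM, with limits of the ratio of 0.428 and 4.34. Ccl8 thus held 39.7% of the summed ligand RPKM of control stroma and 9.20% in stroma labelled knockout, where Cxcl14 held 36.3% against 6.57% in the control.

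**Figure D2:**
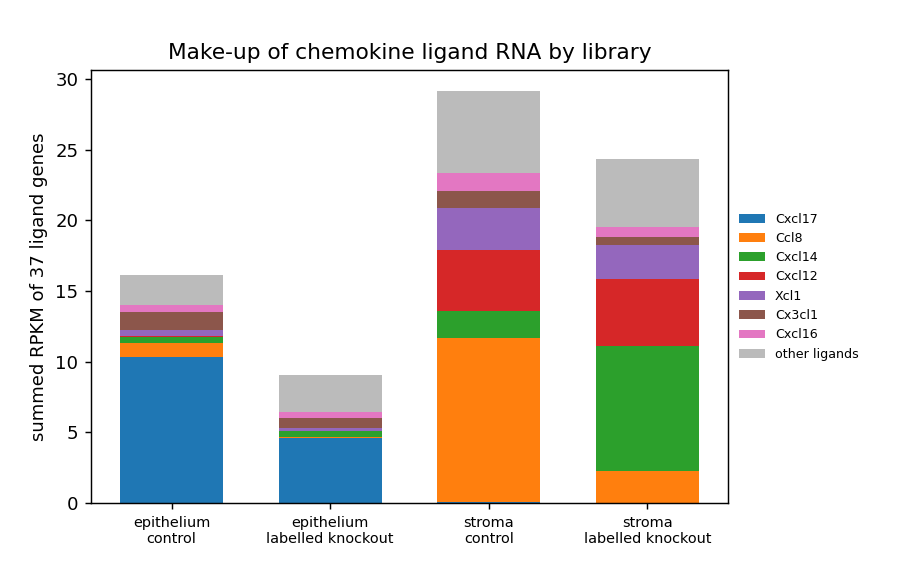
Summed RPKM of the 37 ligand genes in each library, stacked by gene, with the low genes pooled as other ligands. Cxcl17 fills most of both epithelial bars, Ccl8 is the largest block of control stroma and Cxcl14 the largest of stroma labelled knockout.

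Cxcl12, the constitutive ligand that retains blood and immune cells in tissues, showed almost no difference between genotypes in stroma. It was at 4.35 RPKM in control stroma and 4.74 in stroma labelled knockout, which is 1.09 times the control (counting limits 0.984 and 1.21). In epithelium it was at 0.0569 RPKM in the control and listed at 0 in the library labelled knockout. Against the 3 reads that a count of 0 allows there, stroma labelled knockout was at least 480-fold higher. Xcl1, an XC chemokine released by natural killer cells and T cells, was at 2.99 and 2.39 RPKM in stroma, knockout over control 0.798 (limits 0.514 and 1.25), and at 0.489 and 0.169 in epithelium. Cxcl16, a membrane-bound ligand of macrophages and dendritic cells, was at 1.22 and 0.709 RPKM in stroma, 1.72-fold lower (limits 1.32 and 2.23), and at 0.472 and 0.410 in epithelium. Ccl27a, a ligand of epithelial surfaces with near-identical copies in the mouse genome among which reads can be split, was at 1.01 and 0.819 RPKM in stroma and at 0 and 0.309 in epithelium.

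The promoters of 4 ligands are shown here as the 250 bases before the transcript start, from RefSeq on GRCm38.p6, a build other than the mm9 of the tables. Ccl8 and Cxcl14 are shown as the stromal ligands that differed in opposite directions, Cxcl12 as the one that was level, and Cxcl10 as a textbook interferon-induced ligand. Capitals mark matches, on either strand, to the kappaB consensus or to the core of the interferon-stimulated response element, searched as GAAA, any 2 bases and GAAA again.
Cxcl10, chr5:92348890-92349139, minus strand: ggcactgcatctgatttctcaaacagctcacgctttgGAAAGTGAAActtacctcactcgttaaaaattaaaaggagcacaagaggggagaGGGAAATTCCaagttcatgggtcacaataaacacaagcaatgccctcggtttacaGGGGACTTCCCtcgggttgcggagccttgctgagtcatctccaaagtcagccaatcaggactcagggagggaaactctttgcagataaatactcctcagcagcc
Ccl8, chr11:82114935-82115184, plus strand: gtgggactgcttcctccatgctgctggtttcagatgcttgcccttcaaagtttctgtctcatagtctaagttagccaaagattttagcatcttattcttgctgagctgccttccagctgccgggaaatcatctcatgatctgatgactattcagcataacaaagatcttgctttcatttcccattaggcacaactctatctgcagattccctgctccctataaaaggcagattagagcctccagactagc
Cxcl14, chr13:56296552-56296801, minus strand: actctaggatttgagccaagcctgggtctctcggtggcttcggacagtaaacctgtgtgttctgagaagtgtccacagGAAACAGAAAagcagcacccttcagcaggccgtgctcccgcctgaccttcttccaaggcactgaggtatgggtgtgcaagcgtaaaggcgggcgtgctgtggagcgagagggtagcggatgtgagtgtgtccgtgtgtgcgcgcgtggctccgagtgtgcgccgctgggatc
Cxcl12, chr6:117168285-117168534, plus strand: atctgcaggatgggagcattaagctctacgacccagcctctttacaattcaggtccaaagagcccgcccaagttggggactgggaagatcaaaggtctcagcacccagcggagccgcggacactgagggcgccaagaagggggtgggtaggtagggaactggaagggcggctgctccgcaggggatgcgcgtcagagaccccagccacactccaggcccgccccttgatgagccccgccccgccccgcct
The Cxcl10 window held 1 match to the interferon element, 213 to 204 bases before the start, and kappaB matches at 159 to 150 and, overlapping each other, between 104 and 94. The Cxcl14 window held 1 match to the interferon element at 172 to 163. Neither motif had a match in the windows of Ccl8 and Cxcl12. Among the 40 members with a promoter in the RefSeq table, 10 held a kappaB match (25.0%, against 8.23% of all 27025 genes in it) and 3 held the interferon element (7.5% against 3.46%): Ccl19, Cxcl10 and Cxcl14. The 10 with a kappaB match were Ccl1, Ccl9, Ccl20, Ccr1, Ccr3, Ccr6, Cxcl1, Cxcl2, Cxcl3 and Cxcl10, and the highest RPKM any of them reached was the 0.723 of Cxcl10 in control stroma. A match describes these letters only.

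The interferon-induced ligands of Cxcr3 were themselves low. Cxcl10 was at 0.723 and 0.487 RPKM in stroma, control first, and listed at 0 in both epithelial libraries. The stromal ratio of 0.673 had counting limits of 0.381 and 1.18. Cxcl9 was at 0.184 and 0.0932 RPKM in stroma, and Cxcl11 at 0.0367 and 0. Cxcl10 and Cxcl11 share 1 deposited locus.

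Most receptor RNA was in stroma, with sums over the 19 receptors of 15.6 and 10.7 RPKM against 3.63 and 2.52 in epithelium, control first. Ccr2, Cxcr6 and Cx3cr1, carried by monocytes, natural killer cells and macrophages, were lower in stroma labelled knockout. Ccr2, the receptor that brings monocytes out of the blood, was at 5.54 RPKM in control stroma and 2.19 in stroma labelled knockout, 2.53-fold lower (counting limits 2.23 and 2.88). Cxcr6, the receptor for Cxcl16 found on natural killer and T cells, was at 2.42 and 1.09 RPKM, 2.23-fold lower (limits 1.74 and 2.84). Cx3cr1, the fractalkine receptor of resident macrophages, was at 1.06 and 0.551 RPKM, 1.92-fold lower (limits 1.5 and 2.44). For each of these the control was the higher stromal library.

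Macrophage markers moved with these receptors. All 11 markers of a list that includes Lyz2, a myeloid lysozyme, Csf1r, the receptor for macrophage growth factor, and the complement genes C1qa, C1qb and C1qc were lower in stroma labelled knockout. Of them 9 averaged 1 RPKM or more across the pair. Only Lyz2 was past 2-fold lower after 1 RPKM was added, where 1.59% of all genes passing that minimum were. The RPKM of the 11 summed to 80.9 in control stroma and 39.5 in stroma labelled knockout, 2.05-fold lower. Set against that sum, Cx3cr1 was at 1.30% and 1.39%, Ccr2 at 6.85% and 5.55%, and Ccl8 at 14.3% and 5.67%. The share was close in both libraries for Cx3cr1 and lower in the library labelled knockout for Ccl8. Natural killer markers were lower in 6 of 7, with Klrb1c as the exception, summing to 12.1 and 8.45 RPKM, and against that sum Cxcr6 was at 20.0% and 12.9% and Xcl1 at 24.8% and 28.2%. T cells can also carry Cxcr6 and release Xcl1, and T cell markers were lower in 6 of 7, summing to 3.78 and 1.90 RPKM. All 5 general leukocyte markers were lower, with a sum of 29.1 and 15.4 RPKM. In bulk RNA fewer cells of a type and less RNA per cell cannot be told apart. The shares only describe these libraries, and the part of leukocyte content in these differences was not tested.

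**Figure D3:**
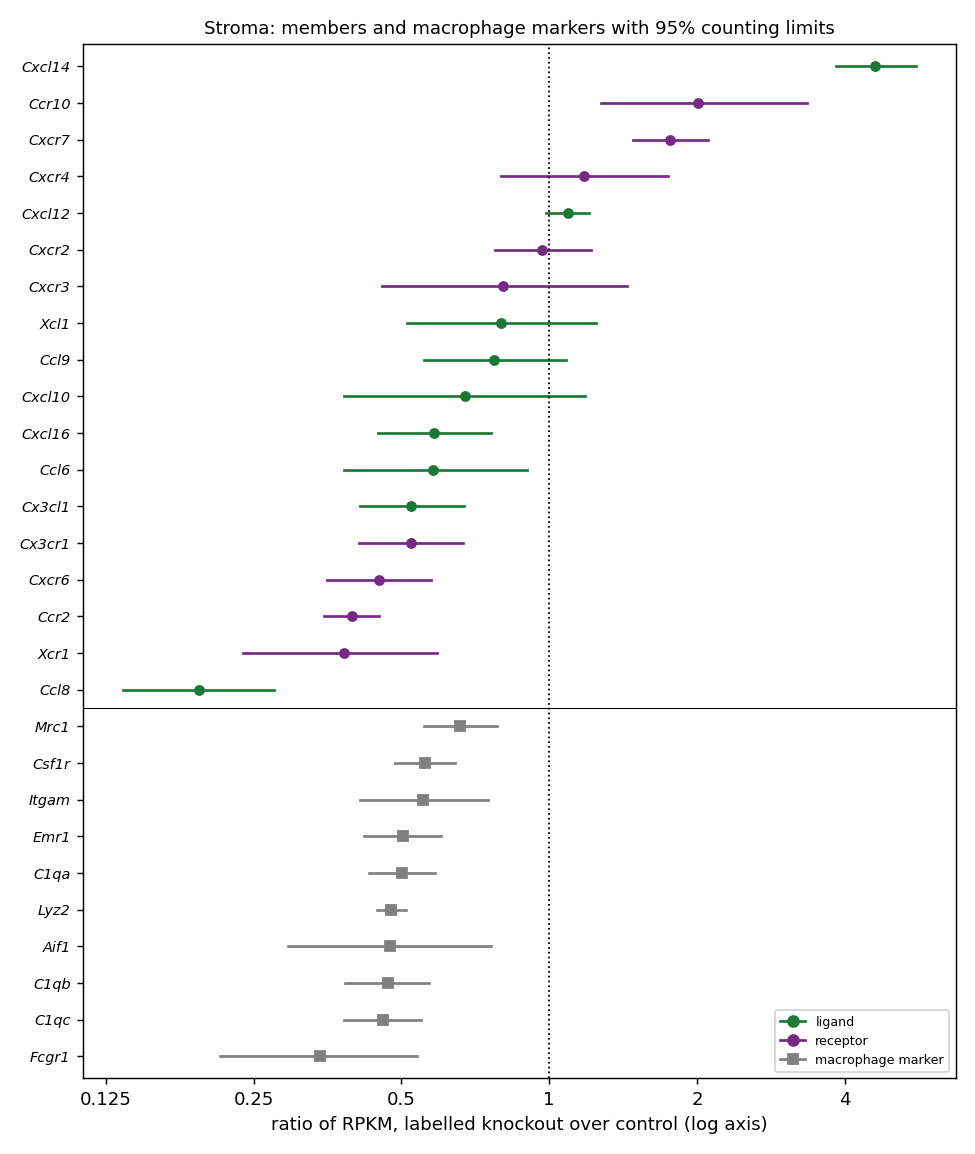
Ratio of RPKM, stroma labelled knockout over control stroma, on a log axis with 95% counting limits, for the 18 chemokine and receptor genes with at least 40 estimated reads over the pair and for 10 macrophage markers. All 10 macrophage markers lie left of 1 with Ccr2, Cxcr6, Cx3cr1 and Ccl8, while Cxcl14, Ccr10 and Cxcr7 lie right of 1.

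Several other receptors did not share this pattern, while Xcr1 was lower too. Cxcr7, the atypical receptor that takes up Cxcl12, now named Ackr3, was at 1.47 RPKM in control stroma and 2.59 in stroma labelled knockout, 1.76-fold higher (limits 1.48 and 2.11). Cxcr4, the signalling receptor for Cxcl12, was at 0.638 and 0.750 RPKM, or 1.18 times the control (limits 0.797 and 1.74). Ccr10, the receptor for Ccl27 and Ccl28, was at 0.387 and 0.777 RPKM, 2.01-fold higher (limits 1.28 and 3.35). Cxcr2, the neutrophil receptor for Cxcl1, Cxcl2, Cxcl3 and Cxcl5, was nearly the same everywhere, at 0.892 and 1.0 RPKM in epithelium and 1.14 and 1.10 in stroma. The 7 neutrophil markers summed to 0.207 and 0.212 RPKM in epithelium and to 2.25 and 0.331 in stroma. In stroma labelled knockout 4 of them were lower and 1 higher. Among them the calgranulin gene S100a8 was listed at 0 in both epithelial libraries and was at 1.22 and 0.0977 RPKM in stroma, and S100a9 at 0, 0, 0.427 and 0. The part of neutrophils in the Cxcr2 values was not tested. Xcr1, the receptor for Xcl1 on cross-presenting dendritic cells, was at 0.324 and 0.124 RPKM in stroma, 2.62-fold lower (limits 1.69 and 4.20). Dendritic cell markers were lower there in 6 of 7, with Zbtb46 as the exception: Clec9a was at 0.462 and 0.277 RPKM and the antigen presentation gene Cd74 at 52.1 and 19.8. Their part in the Xcr1 value was not tested.

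In stroma 9 of the 56 genes averaged 1 RPKM or more across both libraries, and 3 differed at least 2-fold on the scale with 1 RPKM added. Cxcl14 was higher, with a log2 difference of 1.75, and Ccl8 and Ccr2 lower, with -1.96 and -1.03. Among all 7723 genes passing that minimum 1.45% were higher and 1.59% lower, 3.04% in all. Since that rule passes over genes of low level, a second one was added after the data were seen. It asks for a ratio of 2 with no RPKM added and no minimum, and for counting limits that leave out 1. By it 6 of 44 members with reads were higher in stroma labelled knockout (background 2.37%) and 5 lower (background 4.12%). The higher ones were Cxcl14, Ccr10, Ccl11, Ccl22, Ccl25 and Cxcr5, and the lower ones Ccl8, Ccr2, Cxcr6, Ccl5 and Xcr1. For Ccl22, Ccl25 and Cxcr5 the control held only an estimated 1.30, 1.74 and 0 reads. The limits of the ratio were 1.73 and 468 for Ccl22 and 1.12 and 44.2 for Ccl25. Ccl11, the eosinophil attractant eotaxin, was at 0.0509 and 0.544 RPKM, or 10.7 times the control, with wide limits (2.56 and 87.4) because the control held an estimated 1.92 reads. Ccl5, a leukocyte attractant made by T and natural killer cells, was at 0.885 and 0.157 RPKM, 5.63-fold lower (limits 1.71 and 34.0). Over all 56 genes the median log2 difference was -0.01, against 0.00 over all listed genes, with 17 above 0, 29 below and 10 equal.

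The same leukocyte receptors were low in epithelium, and lower still in the library labelled knockout. Ccr2 was at 0.419 RPKM in control epithelium and 0.0309 in epithelium labelled knockout, 13.6-fold lower (counting limits 3.88 and 39.7). Cx3cr1 was at 0.345 and 0.0381 RPKM, 9.06-fold lower (limits 3.40 and 25.5). Cxcr6 was at 0.863 and 0.219 RPKM, 3.94-fold lower (limits 1.6 and 8.10). These are differences of a few molecules, with an estimated 7.41 reads of Ccr2, 7.75 of Cx3cr1 and 9.26 of Cxcr6 in the shallow control. Macrophage markers were lower in the same library, 10 of 11 with Cd68 as the exception, and summed to 12.2 and 1.96 RPKM, 6.24-fold lower. Only Lyz2 of them averaged 1 RPKM or more across the pair, and it was past 2-fold lower. The 5 general leukocyte markers went the other way in sum, at 7.03 and 9.53 RPKM, with 2 higher and 3 lower; Cd52, a leukocyte surface gene, was past 2-fold higher and Laptm5 past 2-fold lower. Lyz2 was at 7.5 and 0.705 RPKM and C1qa at 1.88 and 0.0755. Stromal markers were 9 of 9 lower there. How far carried-over stroma or leukocytes entered these receptor values was not tested. By the added rule 5 of 31 members with reads were lower (Ccl8, Ccr2, Cx3cr1, Cxcl17 and Cxcr6, background 5.81%) and 0 higher (background 5.94%). Low members could hardly pass as higher against the shallow control, so the 0 does not show a lack of higher members. At their knockout level Cxcl1, Ccl27a, Ccr10 and Ccl25, listed at 0 there, would have had an estimated 0.818, 0.588, 0.506 and 0.495 control reads.

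**Figure D4:**
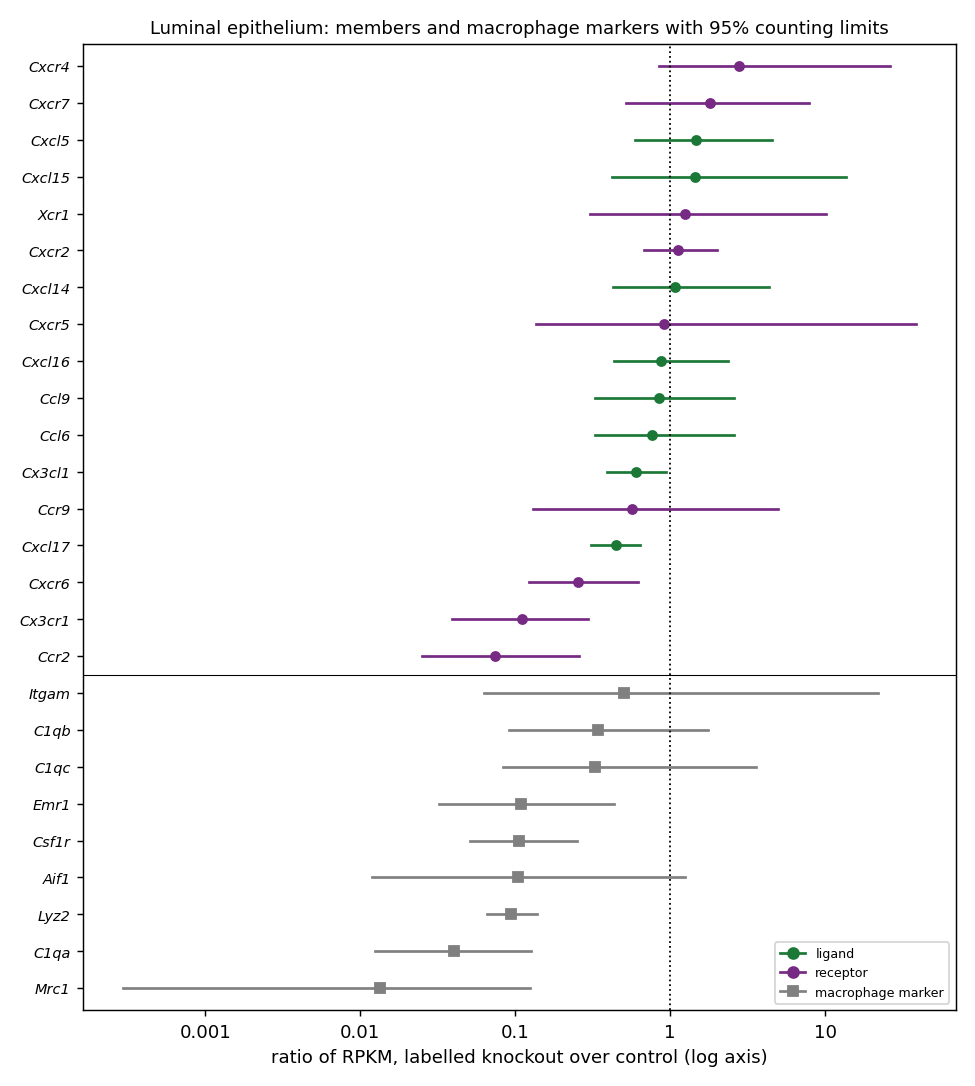
Ratio of RPKM, epithelium labelled knockout over control epithelium, on a log axis with 95% counting limits, for the 17 chemokine and receptor genes with at least 12 estimated reads over the pair and for 9 macrophage markers. Ccr2, Cx3cr1, Cxcr6 and Cxcl17 lie left of 1 with limits that leave it out, and the limits of Cxcr4, Cxcr7 and Cxcl5 cross 1.

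In epithelium Cxcr4 was at 0.221 and 0.616 RPKM, and Cxcr7 at 0.146 and 0.262, control first. Both were higher in the library labelled knockout, but the counting limits of their ratios, 0.842 to 26.3 and 0.517 to 7.84, reach 1. Their ligand Cxcl12 was next to absent in epithelium and among the leading ligands of stroma.

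Between tissues, most members averaging 1 RPKM or more across the pair were at least 2-fold higher in stroma with 1 RPKM added. In the controls 10 of 56 genes averaged 1 RPKM or more across epithelium and stroma. Cxcl17 was at least 2-fold higher in epithelium, and 6 genes at least 2-fold lower, among them Ccl8, Ccr2, Cxcl12, Cxcl14 and Xcl1, where 19.6% of all 8030 genes passing the minimum were higher and 12.1% lower, 31.7% in all. Higher genes were 61.8% of those past the fold as deposited and 39.5% to 52.3% under other scalings. In the libraries labelled knockout 8 genes passed, Cxcl17 being higher and Ccl8, Ccr2, Cxcl12, Cxcl14, Cxcr7 and Xcl1 lower, with backgrounds of 20.7% and 10.7%, or 31.4% in all. There the share of higher genes was 66.0% as deposited and 41.9% to 50.2% under other scalings. Cxcr7 was 10.1-fold lower in epithelium in the controls and 9.90-fold lower in the libraries labelled knockout. Cxcl17 was 131-fold higher in epithelium in the controls (limits 32.3 and 1071) and 167-fold in the libraries labelled knockout (limits 28.1 and 6263). The second comparison has the deeper epithelial library and leaves out the shallow control. There the added rule placed 20 of 43 members with reads lower in epithelium (background 24.2%) and 4 higher (background 21.5%): Cxcl17, Cxcl5, Cxcl1 and Cxcl15. In the controls it placed 11 of 43 lower (background 17.8%) and 2 higher, Cxcl17 and Cxcl5 (background 19.1%).

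Chemokine genes lie in clusters, and neighbouring ligands differed in level and direction. On chromosome 11, from 81849079 to 81993314 (mm9), Ccl2, Ccl7, Ccl11, Ccl12, Ccl8 and Ccl1 follow each other. In stroma Ccl8 was at 11.6 and 2.24 RPKM, while Ccl12, a monocyte attractant, was at 0.556 and 0.543, Ccl7 at 0.240 and 0.0571, Ccl2 at 0.0392 and 0.192, and Ccl1 at 0. Ccl11 was higher with the knockout label, at 0.0509 and 0.544 RPKM (limits of the ratio 2.56 and 87.4). For Ccl12, Ccl7 and Ccl2 the direction was not resolved, with limits of 0.351 to 2.74, 0.0229 to 1.30 and 0.627 to 220. A second group on chromosome 11, from 83339281 to 83478185, holds Ccl5, Ccl9, Ccl6, Ccl3 and Ccl4 and summed to 2.67 and 1.33 RPKM in stroma. Of the receptors clustered on chromosome 9, Ccr1, Ccr3 and Ccr9 did not exceed 0.0785 RPKM in any library. The group on chromosome 5 from 91188325 to 91334964 (Cxcl5, Cxcl3, Cxcl15, Cxcl1 and Cxcl2) had a higher sum in epithelium in both genotypes, 0.941 and 1.29 RPKM against 0.228 and 0.245 in stroma.

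Set beside their receptors, few ligands were present together with them. In stroma both partners reached 1 RPKM in control for Cxcl12 with Cxcr7, Cxcl16 with Cxcr6 and Cx3cl1 with Cx3cr1. For the last 2 pairs ligand and receptor were both lower in stroma labelled knockout. Ccl2, Ccl7 and Ccl12, the ligands paired here with Ccr2, reached at most 0.192, 0.240 and 0.556 RPKM. Ccr8, a receptor for mouse Ccl8, was listed at 0 in all 4 libraries, where 3 reads would make 0.487 RPKM in control epithelium and less in the deeper libraries. The ligands of Ccr7 (Ccl19 and Ccl21c) and the receptor itself did not exceed 0.0224 RPKM.

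Genes that act around the chemokine system were read by the same rule, which only genes above the minimum can pass. Of 29 genes of receptor signalling, among them G protein subunits, arrestins and Rgs regulators, 13 were above it in epithelium and 18 in stroma. Of these, 0 differed 2-fold in either tissue, with median log2 differences over the 29 of 0.01 in epithelium and -0.01 in stroma. Of 21 genes that cut or present chemokines, such as Dpp4 and the heparan sulphate enzymes, 10 and 14 were above it and 0 differed 2-fold, with medians of 0.06 and 0.04. Among all genes above it 7.02% differed 2-fold in epithelium and 3.04% in stroma. In lists this short a 0 lies near those shares and does not show that the genes were unaffected. Of 13 atypical receptors and related ligands only 1 was above the minimum in epithelium and 2 in stroma, too few to describe the list. Rarres2, which encodes the attractant chemerin, was at 11.6 and 12.1 RPKM in stroma, and the scavenger Ccrl1, under the minimum, at 0.632 and 1.34, or 2.12 times the control (limits 1.58 and 2.90). Of 31 NF-kappaB and inflammatory genes 20 were above the minimum in epithelium and 10 in stroma. Of these, 2 were higher in epithelium labelled knockout, Nfkbia and Csf3, and 1 lower, the interleukin-1 receptor Il1r1, at 11.7 and 3.67 RPKM, where 5.03% of all genes were higher and 1.99% lower, and 0 differed in stroma. Of 16 interferon signalling genes, 12 were above the minimum in epithelium and 13 in stroma, and 0 were higher in either library labelled knockout. By the same rule 4 were lower in epithelium and 1 in stroma, where 1.99% and 1.59% of all genes were lower. Among the 4 were Stat2, at 6.23 and 1.95 RPKM, Irf1, at 4.68 and 1.67, and Irf7, at 16.7 and 1.63, which all encode transcription factors of the interferon response.

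Of the 56 genes, 0 were marked significant in the authors' deposited table of either tissue, among 94 genes so marked in epithelium and 5 in stroma. Only 14 members in epithelium and 23 in stroma carried the status OK there, so most were not tested and could not have been marked. In that table the lowest q-value of a member was 0.0561, for Ccr2 in epithelium, and in stroma 0.195, for Ccl11. With 1 library each, that q-value sets 1 library against another and not genotype against genotype.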

How the data were processed

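Deposited values were RPKM per gene, made by the authors per the file headers, in 1 table per tissue. The submitters' processing notes name Cufflinks 2.0.2, TopHat2 2.0.5, TopHat, CASAVA 1.8.2 and the mm9 build. Whether counting used strand was not given in the sources used here, so overlapping genes may share reads. The authors' deposited p-value and q-value, log2 fold change and test statistic compare 2 libraries, and only the p-value and q-value were used, to describe.

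Each comparison took log2 of the ratio of RPKM values with 1 RPKM added to both, which understates low genes, kept genes with a pair mean of at least 1 RPKM, and counted a gene past 2-fold. With 1 library per group no test was made. Reads per gene, and so depth, were estimated from the step between low RPKM values and GENCODE transcript lengths less 200 bases. Estimated reads of all genes fell within 0.2 of a whole number in 59.9% to 62.0% of the low values used, against 40% if spread evenly. Lengths were known for 54 of 56 members, and the plot of levels draws those. Ratios have 95% Clopper-Pearson limits on these estimated reads, which cover counting error only, and a value of 0 was bounded by 3 reads. Deposited starts, counted from 0, were raised by 1. Promoters came from RefSeq on GRCm38.p6.

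Members reaching 1 RPKM in any library, and those at 0 in all, were named by rule, and some genes are not reported here. Other members with values were chosen after their values were seen. The members and lists were chosen with earlier results of these data known. Other settings tried were 7, and 2 more added after seeing the data. Scripts used Python 3.11.15, pandas 2.3.3, scipy 1.17.1 and matplotlib 3.10.9, and were tested on simulated data.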

Additional observations from a re-analysis of the deposited data

How the results depend on the processing

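Under 7 other settings of pseudocount, minimum and scaling the number of members past 2-fold was 1 in epithelium in each, 3 or 4 in stroma, 8 or 9 between tissues in the controls, against 7 as reported, and 7 in each for the pair labelled knockout. With the added rule of a ratio of 2 on unchanged RPKM and counting limits that leave out 1, the counts were 5 in epithelium, 11 in stroma, 13 between tissues in the controls and 24 between those labelled knockout. That rule has no minimum and no added RPKM, so it also counts low genes. No member past 2-fold turned in direction. Small differences did turn under other scalings: Cxcl14 in epithelium went from a log2 difference of 0.03 to between -0.02 and -0.04, Cxcr2 there from 0.08 to -0.04 and -0.03, and Cx3cl1 between tissues from 0.04 to as low as -0.28 in the controls and from 0.11 to as low as -0.15 with the knockout label. Other scalings shifted the median over all kept genes, in log2, by -0.12 to -0.18 in epithelium, by -0.05 to -0.08 in stroma and by -0.17 to -0.44 between tissues. Depth limits the epithelial values: 12 members had 3 or more estimated reads in control epithelium against 26 in its partner. No paired analysis was possible because each group had 1 library. Leaving out a library would leave a group with none.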
